A study of Mus musculus with 12 samples.

Results

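The MYC, MAX and MXD network was described in 12 thymic T-cell lymphomas of C57BL/6 mice that had been treated to restore p53. Its members were chosen by name, as the rows of the count table whose Ensembl identifiers map to Myc, Mycn, Mycl, Max, Mxd1, Mxd4, Mxi1 and Mnt. All 8 were found among the 37991 genes of the table, and all 8 passed the filter on low counts that left 18612 genes for testing. The mice of both groups had the genotype p53neo/R172H;R26CreER/GNZ, so every tumour carried the mutant R172H allele beside the allele that Cre reactivates. Tumour-bearing animals received tamoxifen each week to switch on the Cre recombinase, and tumours were taken after the last magnetic resonance scan. The labels call 8 tumours responder and 4 non-responder, from growth or shrinkage on those scans. No untreated tumour was analysed here, and the labels give no age, batch, litter or tumour size. Cre was expressed from the R26 locus, so recombination was not limited to T cells, and each library is 1 bulk tumour.

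MYC, MYCN and MYCL are basic helix-loop-helix leucine-zipper proteins that bind DNA only as dimers with MAX. The best-known site is the E-box, CACGTG, and MYC bound there raises genes of ribosome production, nucleotide synthesis and cell-cycle entry. MXD1, MXI1, MXD4 and MNT also pair with MAX at E-boxes but bring the SIN3 corepressor, so they oppose MYC, and several MXD genes are known to rise as cells leave the cycle. In thymocytes Myc is a direct target of NOTCH1, and gains of Myc activity are common in T-cell lymphoma.

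E-boxes stand in the promoters of some network genes themselves. The windows of members that hold one are shown because the network's own proteins can bind such a site. The 250 bases before the RefSeq gene start (build GRCm38.p6) were searched for CACGTG, which reads the same on both strands. RefSeq windows were matched for 7 of the 8 members, all except Myc, and the windows of Mxd4 and Mnt each held 1 E-box. Of the 5 further network genes described below, 2, Mlx and Mlxipl, had a window with an E-box, not printed here. Among all 27025 genes with a window, 6.86% had an E-box. The E-box is in capitals below, each sequence runs 5′ to 3′ toward the gene start, and Mxd4 is on the minus strand at chr5:34187711-34187960 and Mnt on the plus strand at chr11:74830674-74830923.
Mxd4: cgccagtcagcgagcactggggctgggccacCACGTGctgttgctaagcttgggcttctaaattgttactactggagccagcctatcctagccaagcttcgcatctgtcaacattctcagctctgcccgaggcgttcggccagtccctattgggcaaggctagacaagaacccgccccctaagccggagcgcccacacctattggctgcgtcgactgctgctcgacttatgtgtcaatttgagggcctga
Mnt: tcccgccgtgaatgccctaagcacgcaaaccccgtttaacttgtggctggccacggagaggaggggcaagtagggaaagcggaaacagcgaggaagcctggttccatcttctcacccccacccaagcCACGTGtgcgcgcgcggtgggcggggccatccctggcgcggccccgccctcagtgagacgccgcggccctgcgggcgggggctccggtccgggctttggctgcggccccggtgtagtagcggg
Counted back from the gene start, the first base of the E-box is at -219 in Mxd4 and at -123 in Mnt. A match describes these letters and is not a measured binding site. In the windows of the MYC-activated genes listed further on, 13 of 67 (19.4%) held an E-box. The MYC-repressed genes had a like share, 3 of 16 (18.75%).

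Libraries held 20796860 to 30265753 counts. All 14 T-cell markers, among them Cd3e and Lck, had counts in every tumour. The responders fell into separate sets for markers of double-positive thymocytes (immature cells of the thymic cortex with CD4 and CD8). Rag1, a recombinase gene of that stage, was at 895 to 1262 CPM in responders 1 to 3 and at 0.410 to 2.91 CPM in responders 4 to 8, against 168 to 1756 CPM in the 4 non-responders. CPM values are read counts divided by the scaled library total. Differences of the network genes named below were also computed with responders 4 to 8 left out, a choice made after seeing the data. In bulk tumours, fewer cells of a type and less RNA per cell cannot be told apart. The design text describes the tumours as independent, and the labels give no litter.

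No member of the network passed the adjusted threshold in edgeR, which called 0% of the 18612 genes (0 of 8 members). At an unadjusted edgeR p under 0.05 there were 4 of 8 members, where 23.8% of all genes were below it. One of the 4, Mxd4, was higher in non-responders (7.73% of all genes) and 3, Mycn, Mycl and Mxd1, were lower (16.1% of all genes). DESeq2 called 2 of 8, Mycn and Mycl, against 13.3% of all genes, and limma-voom called 1 of 8, Mycl, against 9.26%. No member separated the groups without overlap, against 2.13% of all genes (0.951% higher and 1.18% lower in non-responders). Mxd4 was the 1 member of 8 with a log2 fold change above 0, as were 48.5% of all genes. The median log2 fold change of the 8 members was -0.36, beside -0.02 over all genes tested.

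**Figure D1:**
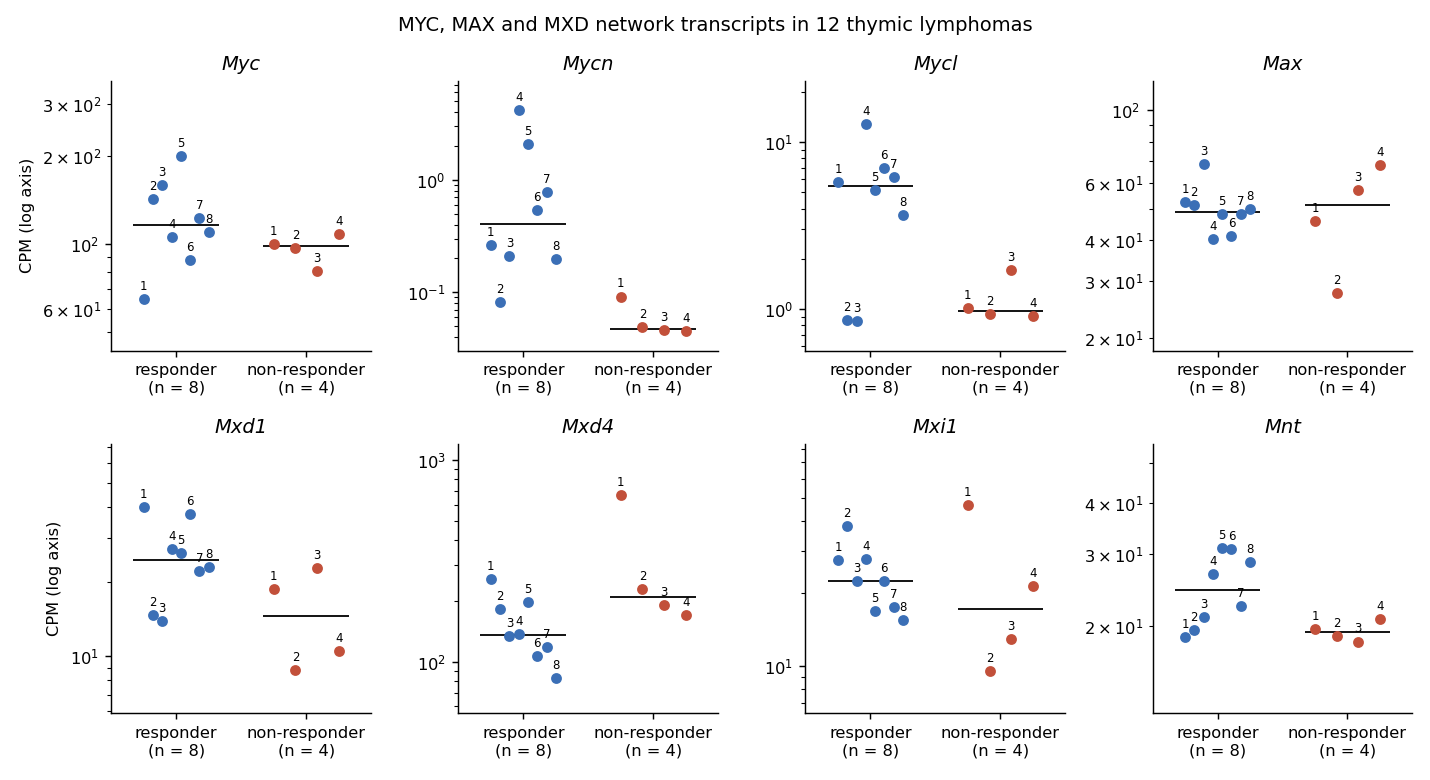
CPM of the 8 members on log axes, 1 point per tumour, numbered by replicate within responders (n = 8) and non-responders (n = 4), with a line at each group's median. Mycl is low in every non-responder and in responders 2 and 3. Mycn is below 0.3 CPM in every non-responder and in responders 1, 2, 3 and 8. Mxd4 is highest in non-responder 1, at 668 CPM.

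Compared per length of exon, Myc was the most abundant transcript of the network. Over the 12 tumours it averaged 42.2 ± 13.6 CPM per kb (SD, n = 12), followed by Mxd4 at 24.3 ± 18.2, Max at 13.8 ± 3.16 and Mnt at 4.98 ± 1.05 CPM per kb. Mxi1 stood at 3.41 ± 1.55, Mxd1 at 3.12 ± 1.38, Mycl at 0.970 ± 0.918 and Mycn at 0.218 ± 0.376 CPM per kb. The exceptions to the rank of Myc over Mxd4 were responder 1 and non-responder 1, since Myc was higher in 10 of 12 tumours. Mxi1 and Mxd1 did not differ beyond their spread and took turns, with Mxi1 higher in 6 of 12. Mnt was above Mxi1 in 10 of 12, and Mxd1 was above Mycl in 12 of 12. Lengths are the union of all annotated exons, so a gene with long rarely used exons, such as Mxd4 with 8483 bases, may be understated.

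The network has 5 further genes. Mlx and Mga, which encode another partner protein and a large MAX partner, stood at 18.5 ± 3.66 and 16.1 ± 3.31 CPM per kb (SD, n = 12), between Mxd4 and Max. Mxd3, an MXD gene of dividing cells, was at 10.3 ± 5.48 and Mlxip at 8.39 ± 2.13 CPM per kb. Mlxipl, which encodes the glucose-responsive factor ChREBP, was at 0.517 ± 0.779 CPM per kb. Reads of Mxd3 and Mlx cannot be fully assigned, because their exons overlap those of Prelid1 and Psmc3ip on the opposite strand and whether counting used strand is not given in the sources used here.

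Myc (ENSMUSG00000022346, chromosome 15, 61985391 to 61990374, GRCm38, protein-coding) was expressed in every tumour, with overlapping levels and a somewhat lower mean in non-responders. It ran from 64.8 CPM in responder 1 through a median of 116 to 200 CPM in responder 5 among responders. In non-responders 1 to 4 it was at 100.1, 96.6, 80.8 and 108 CPM. The non-responders lay within the responders' range and were closer together. The means were 124 ± 42.5 CPM (SD, n = 8) and 96.4 ± 11.4 CPM (SD, n = 4), and the log2 change was -0.36 (SE 0.26, edgeR's adjusted p = 0.403, exact permutation test two-sided p = 0.299). With responders 4 to 8 left out, the change was -0.35. Per length, Myc made up 89.7% to 99.6% of the summed MYC paralogues in responders and 98.6% to 99.4% in non-responders.

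The NOTCH1 receptor gene, a known upstream regulator of Myc, varied more widely than Myc. Notch1 ran from 73.4 to 1906 CPM in responders and was at 6490, 4475, 900 and 1167 CPM in non-responders 1 to 4 (log2 change 2.48, SE 0.95, edgeR's adjusted p = 0.147). In responders 4 to 8 it lay at 73.4 to 128 CPM, while Myc there was at 87.9 to 200 CPM. Non-responder 1, with the highest Notch1, had 100.1 CPM of Myc, and responder 5, with 112 CPM of Notch1, had the highest Myc. In responders 1 to 3 Notch1 was at 778, 1906 and 1495 CPM and Myc at 64.8, 142 and 159 CPM. NOTCH1 activity was not measured, and a link between Notch1 and Myc was not tested. Hes1, the classical NOTCH target, was at 11.2 ± 10.6 and 36.2 ± 11.6 CPM (log2 change 1.70, SE 0.56, edgeR's adjusted p = 0.121) and Notch3 at 70.8 ± 66.5 and 177 ± 47.1 CPM (1.32, SE 0.58). Of the 19 upstream genes tested, 16 were higher and 3 lower in non-responders, where 48.5% of all genes were higher, with a median of 0.42. An unadjusted edgeR p under 0.05 was found for 3 of them (15.8%), named here, against 23.8% of all genes. Limma-voom called Notch1 (adjusted p = 0.0390), Hes1 (adjusted p = 0.0261) and Notch3 (adjusted p = 0.0357), where it called 9.26% of all genes. DESeq2 called Hes1 (adjusted p = 0.0365) but not Notch1 or Notch3, where it called 13.3% of all genes.

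Mycn (ENSMUSG00000037169, chromosome 12, 12936093 to 12941914), the paralogue best known from neuroblastoma and early progenitors, was close to the detection limit in all non-responders. It was at 4.20, 2.09, 0.544 and 0.782 CPM in responders 4 to 7 and at 0.264, 0.0823, 0.211 and 0.198 CPM in responders 1, 2, 3 and 8. In non-responders 1 to 4 it was at 0.0918, 0.0490, 0.0460 and 0.0454 CPM, which is 2, 1, 1 and 1 counts. Responders 4 to 7 were thus above every other tumour, and responder 2 lay within the non-responders. The summed counts were 236 in responders and 5 in non-responders, a ratio per library total of 20.2 with an exact 95% interval of 8.56 to 62.9 that covers counting error only. Responder 4 alone gave 129 of the 236 counts. The fitted log2 change was -4.06 (SE 1.20, edgeR's adjusted p = 0.117, exact permutation p = 0.0222, 0.221 after adjustment over all genes). The change was -0.55 with 1 surrogate variable and -0.84 with the neutrophil and dendritic marker scores as covariates. With responders 4 to 8 left out, Mycn missed the filter and was not tested.

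Mycl (ENSMUSG00000028654, chromosome 4, 122995652 to 123002485), which dendritic cells are known to express, was low in every non-responder but not in them alone. In responders 1 to 8 it was at 5.77, 0.864, 0.844, 12.9, 5.20, 7.01, 6.22 and 3.65 CPM. In non-responders 1 to 4 it was at 1.01, 0.932, 1.70 and 0.908 CPM. Responders 2 and 3 were as low as the non-responders, and the other 6 responders were above all of them. The means were 5.31 ± 3.86 and 1.14 ± 0.379 CPM (log2 change -2.22, SE 0.69, edgeR's adjusted p = 0.118, exact permutation p = 0.0525). DESeq2 gave an adjusted p of 0.00790 and limma-voom 0.0448. With responders 4 to 8 left out the change was -1.16, and responder 1 was then the sole tumour with high Mycl.

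Dendritic-cell markers followed the same tumours as Mycl. The summed level of the 14 markers was 2979 CPM in responder 1, 905 to 1957 CPM in responders 4 to 8, and 441 and 277 CPM in responders 2 and 3. In non-responders it ran from 203 to 470 CPM. Of the 13 markers tested, 12 were lower in non-responders, and none was at 0 in all tumours. With the neutrophil and dendritic marker scores as covariates the log2 fold change of Mycl was 0.20, and with 1 surrogate variable (a term that svaseq derives from the counts) it was 0.43. The part of other cells in the Mycl counts was not tested.

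**Figure D2:**
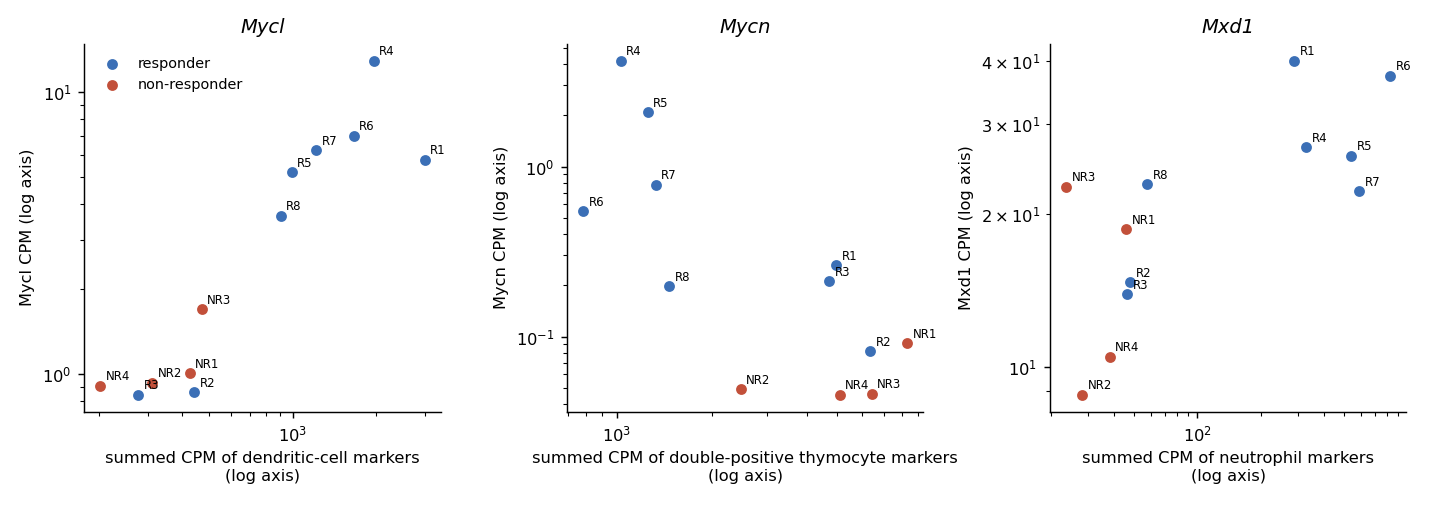
Mycl, Mycn and Mxd1 (CPM, log axes) against the summed CPM of dendritic-cell, double-positive thymocyte and neutrophil markers, 1 point per tumour, 8 responders and 4 non-responders. Mycl is above 3 CPM only in the 6 tumours with more than 900 CPM of dendritic markers, and Mycn is above 0.5 CPM only in responders 4 to 7, which have 784 to 1329 CPM of thymocyte markers.

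Mlxipl resembled Mycn and Mycl in which tumours were high. It was at 1.96, 0.288, 0.886, 15.0, 4.38, 6.02, 4.28 and 0.159 CPM in responders 1 to 8, and between 0.0918 and 0.644 CPM in non-responders (log2 change -3.55, SE 1.16, edgeR's adjusted p = 0.12). Responder 8, which had 3.65 CPM of Mycl, was within the non-responders for Mlxipl. DESeq2 called Mlxipl (adjusted p = 0.00501). Its log2 change was -0.21 with 1 surrogate variable, -0.16 with the neutrophil and dendritic scores and -1.60 with responders 4 to 8 left out. Adipocyte markers, 10 genes, summed to 2793 CPM in responder 4, 84.0 CPM in responder 8, 174 to 934 CPM in the other responders and 80.9 to 118 CPM in non-responders. Muscle markers, 12 genes, summed to 160.5 to 1384 CPM in responders, highest in responder 4, and 74.4 to 347 CPM in non-responders. The part of these tissues in the Mlxipl counts was not tested. Over the 12 tumours the Pearson correlation of log2 CPM was 0.87 between Mlxipl and Mycn and 0.84 between Mycn and Mycl, a description of points that share the split in thymocyte markers.

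Max (ENSMUSG00000059436, chromosome 12, 76937269 to 76962201), the obligate partner, had near-equal group means. It ran from 40.4 through a median of 48.9 to 68.3 CPM in responders and was at 45.7, 27.5, 56.9 and 68.1 CPM in non-responders 1 to 4. The lowest and the second highest tumour of all 12 were thus non-responders. The means were 49.9 ± 8.63 and 49.5 ± 17.3 CPM, and the log2 change of -0.01 (SE 0.22, edgeR's adjusted p = 0.98) changed sign under RLE scaling (0.01). With responders 4 to 8 left out it was -0.23. The ratio of Myc to Max per length was 1.64 to 5.50 in responders and 1.88 to 4.65 in non-responders.

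The 2 transcripts most like Max across the tumours came from its neighbourhood on the chromosome. By Pearson correlation of log2 CPM over the 12 tumours, the closest of 13691 genes compared were Ppp2r5e (0.943), a regulatory subunit gene of phosphatase 2A, and Mthfd1 (0.898), a folate enzyme gene. They start 1.49 and 0.68 Mb from Max. Of the 50 genes most like Max, 13 lay on chromosome 12 and 7 within 5 Mb, where 3.51% and 0.475% of the genes compared did. For the other 7 members, 1 to 8 of the 50 were on the member's own chromosome and at most 1 within 5 Mb. The same-chromosome share was also above that of the genes compared for Mxi1 (7 of 50, against 3.35%) and Myc (6 of 50, against 3.87%). The same held for Mnt (8 of 50, against 8.52%) and Mxd1 (4 of 50, against 5.43%). Mycn, Mycl and Mxd4 lay below, at 1, 3 and 2 of 50 against 3.52%, 6.28% and 6.16%. In non-responder 2, the tumour with the least Max, the 69 genes within 5 Mb of it had a median deviation of -0.52 (log2, from each gene's median over the 12 tumours). In the other tumours this median lay between -0.32 and 0.17. It was 0.016 in responder 3 and 0.075 in non-responder 4, the tumours with the most Max. Responder 7, at 0.17, had 48.0 CPM of Max, so the order did not hold throughout. DNA copy number was not measured.

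**Figure D3:**
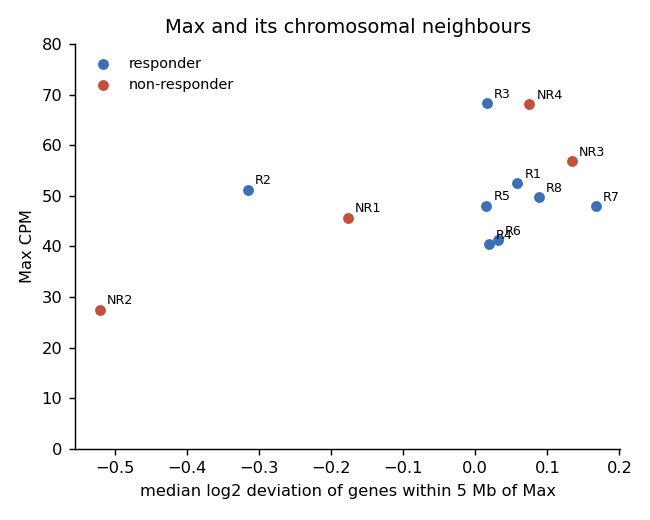
Max (CPM) against the median log2 deviation of the 69 genes within 5 Mb of it, from each gene's median over 12 tumours, 1 point per tumour (8 responders, 4 non-responders). Non-responder 2 is lowest on both axes, at 27.5 CPM and -0.52, and responder 2, at -0.32, has 51.2 CPM.

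Mxd4 (ENSMUSG00000037235, chromosome 5, 34173883 to 34187720), a MYC antagonist known from resting and differentiated cells, had a higher mean in non-responders, mostly through 1 tumour. In responders 1 to 8 it was at 256, 183, 133, 137, 198, 107, 118 and 83.2 CPM. In non-responders 1 to 4 it was at 668, 230, 190 and 170 CPM. Non-responder 1 was far above all others, and the remaining 3 lay within the responders' range but above at least 5 of the 8. The means were 152 ± 56.6 and 315 ± 237 CPM (log2 change 1.05, SE 0.37, edgeR's adjusted p = 0.134, exact permutation p = 0.0444, 0.239 after adjustment over all genes). Without non-responder 1 the change was 0.38, and with responders 4 to 8 left out it was 0.70. Its exons overlap those of the predicted gene Gm42846 on the opposite strand. Within 5 Mb of Mxd4, the median deviation of 109 genes (log2, from each gene's median) was 0.35 and 0.28 in non-responders 2 and 4. It was -0.06 in non-responder 1, the tumour with the most Mxd4, and -0.11 in non-responder 3. In responders it lay between -0.18 and 0.15. The part of these chromosome-wide shifts in the Mxd4 counts was not tested.

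The nearest profiles to Mxd4 were Dyrk1b (Pearson 0.942), a kinase gene linked to cell-cycle exit, and Rb1cc1 (0.922), which encodes the autophagy initiator FIP200. Dyrk1b was at 36.3 CPM in non-responder 1 and between 5.67 and 19.5 CPM in the other 11 tumours. Rb1cc1 was at 233 CPM in non-responder 1 and between 79.2 and 165 CPM elsewhere. Non-responder 1 was therefore the highest tumour for all 3 genes. None of the 3 is on the same chromosome as another.

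Mxd1 (ENSMUSG00000001156, chromosome 6, 86647042 to 86669161), the founding MXD gene, which rises in maturing myeloid cells, was lower on average in non-responders. In responders 1 to 8 it was at 40.0, 14.7, 13.9, 27.1, 26.0, 37.4, 22.2 and 22.9 CPM. In non-responders 1 to 4 it was at 18.7, 8.83, 22.6 and 10.5 CPM. Responders 2 and 3 again lay among the non-responders, and responders 1 and 6 were highest. The means were 25.5 ± 9.44 and 15.2 ± 6.59 CPM (log2 change -0.75, SE 0.34, edgeR's adjusted p = 0.206, exact permutation p = 0.0566).

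Neutrophil markers were highest in responders 1 and 4 to 7, in part the tumours with the most Mxd1. Their summed level, over 15 genes, was 290 to 827 CPM in those 5 tumours and 46.2 to 57.5 CPM in responders 2, 3 and 8, against 23.7 to 45.7 CPM in non-responders. Responder 6, highest for these markers, had 37.4 CPM of Mxd1, and all 14 markers tested were lower in non-responders. The order did not hold throughout. Non-responder 3, lowest for these markers at 23.7 CPM, had 22.6 CPM of Mxd1, and responder 7, at 591 CPM, had 22.2 CPM. The defining gene Ly6g was at 0 in responder 3 and in non-responders 1, 2 and 4. With the neutrophil and dendritic scores as covariates the change of Mxd1 was 0.11, and with 1 surrogate variable 0.04. It was -0.62 with responders 4 to 8 left out. Macrophage markers, 13 genes, summed to 874 to 3486 CPM in responders, highest in responder 1. In non-responders they summed to 1131 to 3473 CPM, highest in non-responder 3. The part of neutrophils, dendritic cells and macrophages in the Mxd1 counts was not tested.

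Mxi1 (ENSMUSG00000025025, chromosome 19, 53310518 to 53375810), another MXD gene and a known target of hypoxia and FOXO factors, varied within both groups. It ran from 15.5 through a median of 22.6 to 38.1 CPM in responders and was at 46.5, 9.51, 12.9 and 21.6 CPM in non-responders 1 to 4. Non-responders held both the highest and the lowest tumours. The means of 23.6 ± 7.51 and 22.6 ± 16.7 CPM gave a log2 change of -0.06 (SE 0.38, edgeR's adjusted p = 0.94), which was -0.68 without non-responder 1 and 0.21 without non-responder 2. It was -0.39 with responders 4 to 8 left out. Within 5 Mb of Mxi1, the median deviation of 28 genes was -0.60 and -0.56 in non-responders 2 and 3, the tumours with the least Mxi1, and 0.52 in responder 4. The order did not hold throughout, since it was -0.18 in non-responder 1 and -0.16 in responder 2, the tumours with the most Mxi1, and 0.26 in responder 8, the responder with the least.

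Mnt (ENSMUSG00000000282, chromosome 11, 74830920 to 74845725), the most widely expressed antagonist, was even across the non-responders. It was at 19.7, 18.9, 18.3 and 20.8 CPM in them, at 18.7, 19.5 and 21.01 CPM in responders 1 to 3 and at 22.4 to 31.0 CPM in responders 4 to 8. Responders 4 to 8 were thus above all 7 other tumours. Over the labelled groups the means were 24.8 ± 5.05 and 19.4 ± 1.07 CPM (log2 change -0.36, SE 0.18, edgeR's adjusted p = 0.253, exact permutation p = 0.0667). With responders 4 to 8 left out the change was -0.04.

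Mxd3, not among the 8 members, was higher on average in non-responders. It was at 13.8, 34.8, 26.3, 7.81, 13.9, 9.80, 24.5 and 13.5 CPM in responders 1 to 8, and at 37.6, 29.2, 29.95 and 50.6 CPM in non-responders 1 to 4. Responder 2 was the sole responder above a non-responder. Its log2 change was 1.03 (SE 0.36, edgeR's adjusted p = 0.131) and limma-voom gave an adjusted p of 0.0379. It was 0.05 with 1 surrogate variable, 0.21 with the neutrophil and dendritic scores and 0.55 with responders 4 to 8 left out. All 20 proliferation genes, among them Mki67 and Top2a, also had a positive log2 fold change, as did 48.5% of all genes, with a median of 0.39. An unadjusted edgeR p under 0.05 was found for 3 of 20 (15%), against 23.8% of all genes. Responders 2 and 3, with a mean log2 CPM over the 20 genes of 8.14 and 7.95, lay among the non-responders, which ran from 7.61 to 8.32. The 3 genes were Rrm2 (0.85), Mcm7 (0.72) and Cdk1 (0.84). Limma-voom called Rrm2 (adjusted p = 0.0428), Mcm7 (adjusted p = 0.0443) and Cdk1 (adjusted p = 0.0434), against 9.26% of all genes. DESeq2 called none of them.

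**Figure D4:**
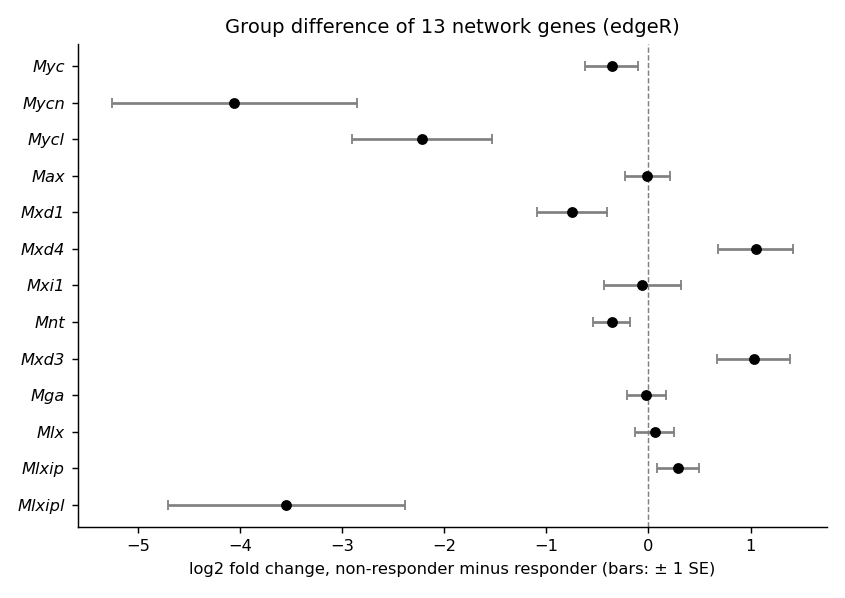
Log2 fold change, non-responder minus responder, of the 8 members and 5 other network genes from edgeR over 12 tumours, with bars of 1 SE to either side. Mycn, Mycl and Mlxipl lie lowest, at -4.06, -2.22 and -3.55, and Mxd4 and Mxd3 highest, at 1.05 and 1.03, none of them passing the adjusted threshold. The near-zero sign of Max turns under RLE scaling.

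Summed per length, MYC paralogues outweighed the MXD genes and Mnt in most responders and in no non-responder. The ratio of Myc, Mycn and Mycl to Mxd1, Mxd3, Mxd4, Mxi1 and Mnt was 0.509, 1.09, 1.60, 1.31, 1.79, 1.07, 1.35 and 1.52 in responders 1 to 8. In non-responders 1 to 4 it was 0.343, 0.776, 0.684 and 0.791. The groups overlapped only through responder 1, which lay below 3 of the 4 non-responders. This ratio was formed with the values in view and is given as a description. It rests on union exon lengths and on RNA, not protein. The antagonist sum was 108 CPM per kb in non-responder 1 and 44.1 to 50.5 CPM per kb in the other non-responders, against 27.2 to 49.8 CPM per kb in responders.

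**Figure D5:**
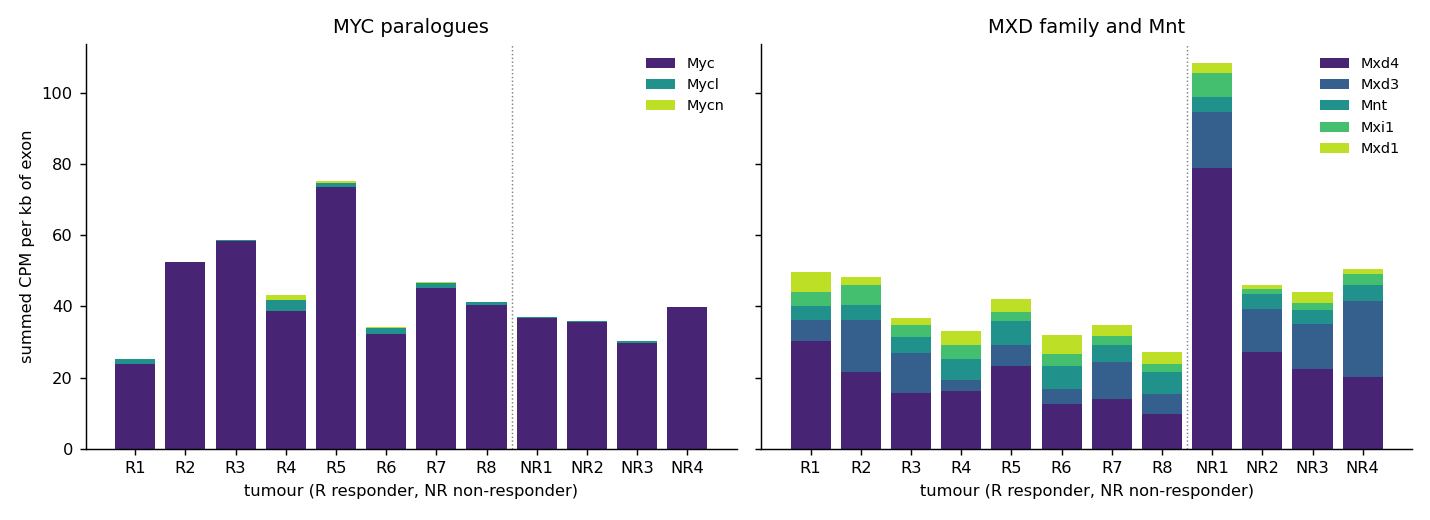
Summed CPM per kb of exon of the MYC paralogues (left) and of the MXD family with Mnt (right) in each tumour (R responder, NR non-responder), stacked by gene. Myc supplies nearly all of the left bars, and the right bar of non-responder 1 reaches 108 CPM per kb, of which Mxd4 is 72.7%.

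Genes that MYC is known to raise lay on both sides of 0. Of 80 such genes tested, 47 were higher and 33 lower in non-responders, with a median log2 fold change of 0.11 beside -0.02 over all genes. An unadjusted edgeR p under 0.05 was found for 3 higher and 3 lower genes, 7.5% of the list where 23.8% of all genes were below it. The median of the 80 was -0.45 with 1 surrogate variable and -0.40 with the neutrophil and dendritic scores as covariates, where the median of all genes was 0.03 and 0.01. The 30 ribosome-production genes divided evenly, 15 higher and 15 lower (median 0.03). The 32 metabolic genes had a median of 0.11 and the 18 cell-cycle genes, which include Trp53, one of 0.21.

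The single targets with the lowest p-values lay on both sides of 0. Slc2a1, which encodes the glucose transporter GLUT1, averaged 34.5 ± 5.51 CPM in the responders and 20.96 ± 2.24 CPM in the non-responders (lowest to highest 26.6 to 42.1 and 18.6 to 24.0). Its groups did not overlap, the single case among the 80 where 2.13% of all genes did not overlap (log2 change -0.72, SE 0.16, edgeR's adjusted p = 0.117, exact permutation p = 0.00202, the smallest that 495 splits allow). Npm1, the nucleolar chaperone gene, was at 1276 ± 247 and 850 ± 176 CPM (-0.59, SE 0.20), whereas the nucleolar gene Nop56 had -0.38 and the ribosome-production gene Noc4l 0.36. Tert, the telomerase gene, was at 7.13 ± 3.88 and 20.4 ± 11.2 CPM (1.51, SE 0.43, edgeR's adjusted p = 0.117). DESeq2 called Slc2a1 (adjusted p = 0.00196) and Tert (adjusted p = 0.0138), where it called 13.3% of all genes. Limma-voom also called Slc2a1 (adjusted p = 0.0390) and Tert (adjusted p = 0.03996), against 9.26% of all genes. Neither method called Npm1, Nop56 or Noc4l.

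Ccnd2, the cyclin D2 gene, had the lowest fold change of the 80. It averaged 192 ± 173 CPM in the responders and 10.3 ± 6.85 CPM in the non-responders (log2 change -4.22, SE 0.99, edgeR's adjusted p = 0.117). DESeq2 (adjusted p = 5.29e-05) and limma-voom (adjusted p = 0.0390) called Ccnd2. Responder 2, at 10.4 CPM, lay within the 4.99 to 19.7 CPM of the non-responders, and responders 4 to 8 were at 143 to 520 CPM. Cdk4, its kinase partner, was at 160 ± 43.9 and 228 ± 55.8 CPM (0.51, SE 0.24). Prps2, of nucleotide synthesis, was at 171 ± 118 and 350 ± 180 CPM (1.03, SE 0.47). Limma-voom called Prps2 (adjusted p = 0.0484) but not Cdk4, and DESeq2 called neither.

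Of the 20 genes that MYC is known to repress, 10 were higher and 10 lower, with a median of 0.00. Klf6, a growth-restraining zinc-finger gene, was at 78.3 ± 31.4 and 34.3 ± 6.12 CPM (log2 change -1.19, SE 0.34), and Cebpa, a myeloid factor gene, at 34.9 ± 29.1 and 13.8 ± 3.41 CPM (-1.34, SE 0.53). For Klf6, responders 2 and 3, at 37.4 and 31.3 CPM, lay within the 25.35 to 38.8 CPM of the non-responders. Cebpa was at 103 CPM in responder 4 and 10.4 to 37.2 CPM in the other responders, against 8.99 to 16.6 CPM in non-responders. Btg2, an antiproliferative gene that p53 also raises, was at 107 ± 72.8 and 326 ± 261 CPM (1.61, SE 0.52). Non-responder 1, the highest for Mxd4, also had the most Btg2, at 700 CPM. The 3 genes had unadjusted edgeR p-values under 0.05 and none passed after adjustment in edgeR. DESeq2 called Klf6 (adjusted p = 0.0113) and Btg2 (adjusted p = 0.0326), and limma-voom called Klf6 (adjusted p = 0.0357).

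The corepressor genes through which MXD and MNT proteins act were mostly higher in non-responders. Of 11 listed genes tested, 9 were higher and 2 lower, where 48.5% of all genes were higher, with a median log2 fold change of 0.42. The 9 include Zbtb17 (0.30, SE 0.14), which was listed with them but is not a corepressor gene of MXD or MNT. An unadjusted edgeR p under 0.05 was found for 2 (18.2%), against 23.8% of all genes. Sin3b, which encodes the scaffold that binds the MXD amino terminus, averaged 96.9 ± 36.3 CPM in the responders and 190 ± 22.2 CPM in the non-responders (0.97, SE 0.25, edgeR's adjusted p = 0.117). It was at 138, 151 and 131 CPM in responders 1 to 3, at 64.8 to 78.6 CPM in responders 4 to 8 and at 222, 176, 188 and 173 CPM in non-responders 1 to 4. The groups did not overlap, as for 2.13% of all genes, and responders 1 to 3 lay between the other responders and the non-responders. Suds3, a subunit gene of the same complex, was at 87.6 ± 14.9 and 129 ± 24.6 CPM (0.56, SE 0.17), and DESeq2 called both genes, where it called 13.3% of all. Limma-voom also called Sin3b (adjusted p = 0.0325) and Suds3 (adjusted p = 0.0426), against 9.26% of all genes.

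Cofactor genes of MYC were higher in non-responders in 15 of 15 cases, as were 48.5% of all genes. Their log2 changes were 0.10 to 0.57 (median 0.21). An unadjusted edgeR p under 0.05 was found for 2 of 15 (13.3%), named here, against 23.8% of all genes. Responders 2 and 3, with a mean log2 CPM over the 15 genes of 7.04 and 7.07, lay among the non-responders, which ran from 6.91 to 7.22. Trrap, the scaffold of the acetyltransferase complexes MYC recruits, was at 346 ± 61.7 and 514 ± 161 CPM (0.57, SE 0.20, edgeR's adjusted p = 0.131), and Ep400 at 328 ± 62.9 and 437 ± 90.8 CPM (0.42, SE 0.19). Of 21 genes that set the stability of MYC protein, 18 were higher and 3 lower (median 0.16). An unadjusted edgeR p under 0.05 was found for 3 of them (14.3%). Pcna of the cofactors and Aurka and Plk1 of the stability genes are also among the proliferation genes. Fbxo32, a ubiquitin ligase gene, was at 18.1 ± 7.80 and 9.38 ± 4.12 CPM (-0.95, SE 0.43). T-cell markers as a whole summed to 1295 to 3604 CPM in responders and 2883 to 4150 CPM in non-responders, and their part in these small upward shifts was not tested.

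Genes nearest to the remaining members were identified by the same correlation over 12 tumours. Myc lay closest to Aebp2 (0.868), a Polycomb cofactor gene, and Suclg2 (0.857), of the citric acid cycle. Mycn lay closest to Col28a1 (0.965) and Pde1a (0.963), and Mycl to Gstt1 (0.986) and Samhd1 (0.984), the latter a nucleotide-degrading enzyme gene. Samhd1 was at 105 to 277 CPM in the 6 responders with high Mycl and at 17.3 to 32.6 CPM in the other 6 tumours. Mxd1 lay closest to Pla2g4a (0.949) and Blvrb (0.938), Mxi1 to Ralgapa1 (0.921) and Uevld (0.902), and Mnt to Btbd17 (0.94) and Kcnip2 (0.933). Tumours of each correlation share the library scaling and the split in thymocyte markers.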

How the data were processed

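RNA-seq libraries of 12 tumours were analysed, 8 responder and 4 non-responder, grouped by the response label. The authors deposited raw counts per Ensembl gene, made with HTSeq per the submitters' processing notes, which also name DESeq. These notes name NCBIM37 and the labels' protocol names mm10, so the build is not settled. The sources used here do not name the aligner or say whether strand was used. Symbols matched 32919 of 37991 identifiers in the GENCODE M21 table of GRCm38, whose coordinates are printed. Totals were 20796860 to 30265753 counts. Every pair of libraries differed beyond sampling noise (lowest chi-square over degrees of freedom 58.8).

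Genes passing filterByExpr (18612) were scaled by TMM and tested with edgeR 4.0.16 (quasi-likelihood F test, robust, group as sole term) in R 4.3.3. P-values were two-sided and adjusted by Benjamini-Hochberg over all genes tested, with a threshold of 0.05. The exact permutation test compared mean log2 CPM (prior count 2) over all 495 splits, with a smallest p of 0.00202, and was adjusted over all genes. It was not adjusted over the 8 members. The 95% interval of a count ratio was exact binomial. The procedure was tested on simulated data.

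The alternatives tried were DESeq2 1.42.0, limma-voom (limma 3.58.1, quality weights), scaling by RLE or upper quartile, no filter or one of 1 CPM in 4 libraries, dispersions without the robust option, 1 surrogate variable (sva 3.50.0), neutrophil and dendritic scores as covariates, and each tumour left out. Leaving out responders 4 to 8 was added after seeing the data.

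Members and gene lists were chosen with earlier results of these data known. Named genes are the 13 network genes, the 4 genes per list with the lowest edgeR p, and the 2 genes most correlated with each member. Some genes that this rule names are not reported here. Pvt1 was not matched and was not analysed here. The family ratio, the chromosome values and the remaining genes named (marker genes and Trp53) were chosen after values were seen.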

Additional observations from a re-analysis of the deposited data

Results flagged for a closer look

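Among 26 combinations of the 13 network genes with a group, 6 held a tumour whose gap to the nearest other tumour was large against the group's range. The limits used flag about 1 in 20 only for independent, normally distributed values. Here CPM were not log-transformed, the genes share tumours, and Mycn was at 1 or 2 counts in non-responders. The 6 flags therefore cannot be set against that rate. Non-responder 1 stood apart for Mxd4, at 668 CPM with the next at 230 CPM. It also did for Mycn, at 0.0918 CPM with the next at 0.0490 CPM, which is 2 counts against 1. Non-responder 3 stood apart for Mycl, at 1.70 CPM with the next at 1.01 CPM. Responder 3 was flagged for Max, at 68.3 CPM with the next at 52.5 CPM, and responder 2 for Mga, at 377 CPM with the next at 258 CPM. Responder 4 was flagged for Mlxipl, at 15.0 CPM with the next at 6.02 CPM.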

How the results depend on the processing

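The count of genes past the adjusted threshold was 0 in edgeR, 1723 in limma-voom and 2462 in DESeq2, and ran from 0 to 5 with 1 tumour left out. It was 5 without responder 3, 3 without non-responder 1 and 1 without non-responder 3. Genes at an unadjusted p under 0.05 fell from 4428 to 1199 with 1 surrogate variable, to 915 with the neutrophil and dendritic scores and to 958 with responders 4 to 8 left out. DESeq2 called Mycn (-4.14) and Mycl (-2.18), and limma-voom called Mycl (-2.10). Directions of Myc, Mycn, Mxd4 and Mnt were kept in every alternative that gave a value, though with 1 surrogate variable Myc was -0.62, Mycn -0.55 and Mnt -0.02. Mycl (0.43 and 0.20) and Mxd1 (0.0377 and 0.11) turned with 1 surrogate variable and with the 2 scores. Mycn could not be fitted under the filter of 1 CPM, with responders 4 to 8 left out, or without responder 4, 5, 6 or 7. Max turned to 0.0111 under RLE scaling, 0.0108 in limma-voom, 0.0113 in DESeq2 and 0.0388 with no filter, and Mxi1 to 0.00122 with no filter. Mga turned to 0.0281 with no filter and 0.0205 in limma-voom, and Mlx to -0.00555 under upper-quartile scaling, -0.11 with 1 surrogate variable and -0.17 with the scores. With 1 tumour left out, Max ran from -0.20 to 0.20, Mxi1 from -0.68 to 0.21, Mga from -0.0869 to 0.0901, Mlx from -0.00340 to 0.15 and Mxd4 from 0.38 to 1.26. The median of the MYC-activated genes moved to -0.45 with 1 surrogate variable and to -0.40 with the scores, and was -0.10 with responders 4 to 8 left out. The cause of these shifts was not tested. At 1 or 2 counts per non-responder, depth limits Mycn.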
